A study of Mus musculus with 10 samples.

Results

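The genes described here encode the potassium channel Kv2.2 (Kcnb2) and 8 silent subunits that assemble with Kv2 channels: Kcng1, Kcng2, Kcng3 and Kcng4 of the Kv6 group, Kcns1, Kcns2 and Kcns3 of the Kv9 group, and Kcnv1 (Kv8.1). They were taken by gene symbol and are 9 of the 51912 genes in the count files. Of these 9 genes, 8 have a row in the deposited normalised tables, and Kcng3 was found in the count files by its identifier.

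The libraries came from motor neurons of the mouse lumbar spinal cord, collected by laser capture as 1 pool of about 50 cells per mouse and amplified with Smart-seq2. There were 5 HSA-NRTN mice, in which the promoter of human skeletal actin drives the growth factor neurturin in muscle fibres, and 5 littermates of wild-type genotype. Each genotype had 3 female and 2 male mice. The transgene thus acts outside the captured cells, and neither ages nor strain background are given in the sources used here. Captured cells showed a nucleolus and had an area above 200 µm2, so smaller motor neurons were left out by design.

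Kv2 channels are delayed rectifiers, which open slowly on depolarisation and help to repolarise a neuron that fires repeatedly. In motor neurons Kv2 channels gather in clusters on the cell body and the first dendrites. The silent subunits make no working channel of their own. They join Kv2 subunits in 1 channel and change its opening and closing, and Kcng4 (Kv6.4) also serves to mark fast motor neurons.

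Gene counts per library ran from 1875971 to 6641695, with the lowest in HSA-NRTN replicate 2. The captured cells carried the markers of their label. Levels are in CPM, counts per M gene counts, with library sizes scaled by TMM. The summed level of 6 motor neuron markers was 2817 to 4183 CPM in HSA-NRTN pools and 2139 to 3597 CPM in wild-type pools. Slc5a7 was the largest part, at means of 1897 and 1458 CPM. Chat was at 117 and 89.5 CPM, and Isl1 at 53.8 and 27.5 CPM. Prph was nearly level, at 752 and 729 CPM, and Mnx1 went the other way, at 11.5 and 16.9 CPM. Of these 6 markers, 5 log2 fold changes were positive and 1 negative, and none had an unadjusted p under 0.05 in edgeR. Markers of glia were present too. The 5 oligodendrocyte markers summed to 243.5 to 1382 CPM in HSA-NRTN and 193 to 598 CPM in wild-type libraries, and the 5 astrocyte markers to 45.9 to 733 and 45.5 to 243.1 CPM, with HSA-NRTN replicate 2 the highest of the 10 for both. Inhibitory interneuron markers summed to 11.1 to 160 CPM in HSA-NRTN and 0.688 to 172 CPM in wild-type libraries, and excitatory ones to 21.4 to 182 and 0.283 to 300 CPM, with Slc17a8 at 0 counts throughout. Microglial markers reached at most 11.9 CPM and endothelial ones 9.73 CPM.

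Kcng4 stood far above the other members. On a scale that allows genes to be compared, CPM per kilobase of annotated exon, its mean level over the 10 libraries was 87.8 ± 13.8 (SD), higher than 95.2% of the 11613 tested genes with an annotated length. Kcnb2 followed at 6.24 ± 3.22, then Kcns3 at 5.01 ± 2.74, Kcng1 at 4.21 ± 1.92 and Kcnv1 at 2.18 ± 2.93. The last 3 detected genes were Kcns1 at 0.416 ± 0.695, Kcns2 at 0.235 ± 0.521 and Kcng2 at 0.0984 ± 0.285, each with no count in at least 3 of the libraries.

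The order was tested between neighbours within each library, with exact two-sided sign-flip permutation tests on log2 values with a pseudocount of 0.1, adjusted over the 7 neighbouring pairs. Kcng4 exceeded Kcnb2 in 10 of 10 libraries, by 3.95 on the log2 scale (adjusted p = 0.0137, exact permutation, from the smallest p that 10 libraries can give, 0.00195). Kcng1 exceeded Kcnv1 in 9 of 10 libraries, by 1.80 (adjusted p = 0.0205, exact permutation). The other 5 pairs did not differ beyond their spread, and Kcnv1 and Kcns1 were among them (adjusted p = 0.196, exact permutation). Kcnb2, Kcns3 and Kcng1 thus form a middle tier whose order was not resolved over the 10 libraries, where Kcnb2 and Kcng1 were not compared directly. In wild-type libraries alone Kcns3 exceeded Kcng1 in 5 of 5 (p = 0.0625, exact permutation, unadjusted, the smallest that 5 libraries can give).

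**Figure D1:**
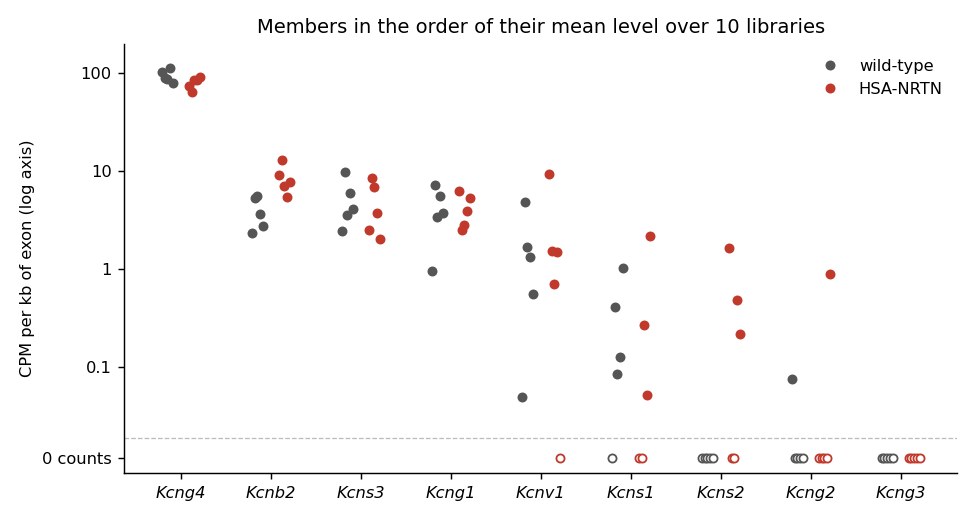
Level of each of the 9 genes in each library, in CPM per kilobase of exon on a log axis, with wild-type libraries in grey and HSA-NRTN libraries in red. Open points on the lowest line are libraries with 0 counts. Kcng4 lies between 64.5 and 114 in all 10 libraries, while Kcng3 has no count in any.

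The mean level of Kcnb2 stood differently to those of Kcns3 and Kcng1 in each genotype, a difference in order that was not tested. In wild-type libraries its mean level per length, 3.96 ± 1.47 (SD, n = 5), lay below those of Kcns3 (5.24 ± 2.94) and Kcng1 (4.21 ± 2.37), although Kcng1 exceeded it in only 3 of 5 libraries and their order was not resolved (exact permutation p = 0.812). In HSA-NRTN libraries it was 8.52 ± 2.85 (SD, n = 5), above Kcns3 (4.78 ± 2.86) and Kcng1 (4.20 ± 1.65). Levels per length depend on the annotated exons, which for Kcnb2 come to 15.2 kb, against 2.71 to 5.59 kb for the silent subunits. Counted per library without regard to length, Kcnb2 reached 36.0 to 197 CPM.

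Kcnb2 is the only member of the 9 that forms a channel pore on its own. It lies on chromosome 1 of GRCm38 from 15287254 to 15723750 on the plus strand, a gene of 436497 bp whose longest annotated transcript has 2 exons. No other annotated gene shares exonic bases with it. In wild-type libraries Kcnb2 was at 36.0, 82.1, 84.5, 55.2 and 42.2 CPM in replicates 1 to 5, and in HSA-NRTN libraries at 141, 197, 107, 82.9 and 118 CPM. Of the HSA-NRTN libraries, all but replicate 4 exceeded every wild-type library, and replicate 4 lay just under wild-type replicate 3, so the groups overlapped by 1 pair.

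The fitted difference of Kcnb2 was 2.15-fold (log2 fold change 1.10, SE 0.31, 95% interval 0.44 to 1.77), higher in HSA-NRTN pools. With an unadjusted p of 0.00289, the 68th smallest of 11630 tested genes, it did not pass over all genes (adjusted p = 0.489, edgeR's quasi-likelihood test with Benjamini-Hochberg adjustment). An exact two-sided permutation test of its mean CPM alone gave p = 0.0159, where 5 against 5 libraries cannot go below 0.00794. DESeq2 on the same counts gave an adjusted p of 0.0856, and the authors' deposited table gives a moderated log2 fold change of 0.93 with an adjusted p of 0.0671.

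In bulk pools, fewer cells that carry a transcript and less of it per cell cannot be told apart. Beside the Kcnb2 difference, the library with its highest level, HSA-NRTN replicate 2, also had the highest glial marker sums, and the part of these in the result was not tested. Without that library the log2 fold change was 0.90, and without it and wild-type replicate 1 together 0.77. It was 0.83 in females alone and 1.43 in males alone, and the difference between the sexes did not pass (interaction 0.63, SE 0.60, adjusted p = 0.945, edgeR).

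**Figure D2:**
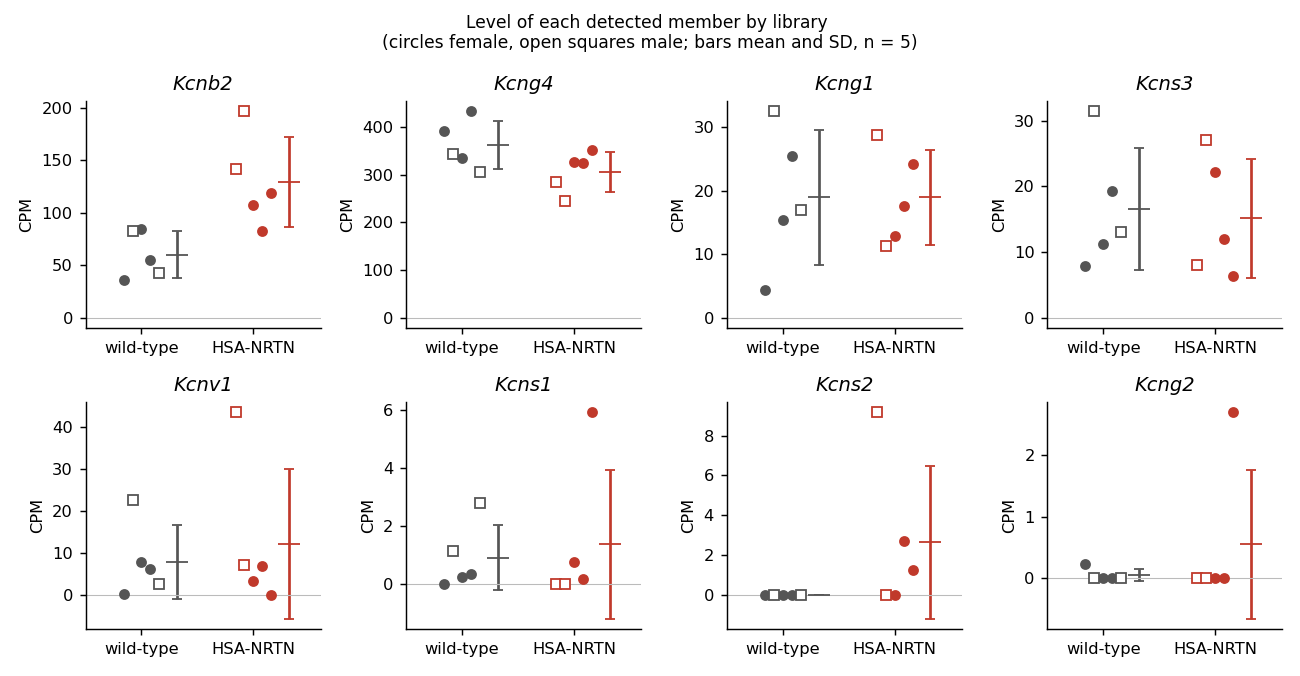
CPM of the 8 detected members in each library, with filled circles for females, open squares for males and bars for mean and SD (n = 5 per genotype). Each panel has its own linear axis that includes 0. Kcnb2 is at 36.0 to 84.5 CPM in wild-type and 82.9 to 197 CPM in HSA-NRTN libraries, Kcns2 has counts in HSA-NRTN libraries alone, and for the other 6 genes the genotypes overlap widely.

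Of the 9 genes, 5 had enough counts for the fit across all genes, Kcnb2, Kcng4, Kcng1, Kcns3 and Kcnv1. None of the 5 passed an adjusted p of 0.05 for genotype in edgeR, DESeq2 or limma voom, and 1 of the 5, Kcnb2, had an unadjusted p under 0.05 in edgeR. Over all 11630 genes, 0.0086% were called by edgeR, 4.83% had an unadjusted p under 0.05, and 2.41% had one and were higher in HSA-NRTN pools. Limma voom called 0.0258% of the same genes, and DESeq2, which adjusted over 15741 genes, called 0.8% of those. The 5 log2 fold changes had a median of 0.00087 beside -0.015 for all genes tested, with 3 positive and 2 negative. None of the members had groups that did not overlap, which was so for 1.25% of all genes tested, 0.645% with the HSA-NRTN group on top.

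Kcng4 is the silent subunit that marks fast motor neurons. It lies on chromosome 8 from 119623854 to 119635680 on the minus strand and overlaps no other annotated gene. In wild-type libraries it was at 391, 343, 335, 434 and 306 CPM in replicates 1 to 5, and in HSA-NRTN libraries at 284, 245, 327, 324 and 352 CPM. The groups overlapped, and replicates 1 and 2 of the HSA-NRTN group were lower than any wild-type library. Its mean was 307 ± 42.1 CPM against 362 ± 50.4 CPM (SD, n = 5 each), a log2 fold change of -0.24 (SE 0.20) that did not pass (adjusted p = 0.999, edgeR). The 95% interval of -0.66 to 0.18 still holds a moderate decrease as well as no change.

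Among genes of like abundance Kcng4 varied little from animal to animal. Its coefficient of variation was 13.9% over wild-type and 13.7% over HSA-NRTN libraries. The 960 other tested genes within 2-fold of its mean CPM had medians of 25.2% and 26.1%, and 89.1% and 90.2% of them varied more than Kcng4. Kcnb2, Kcns3 and Kcnv1 varied more than the median gene of their level in both genotypes, Kcnb2 and Kcns3 by little. Kcnb2 had coefficients of 37.3% and 33.4% in wild-type and HSA-NRTN libraries beside medians of 32.2% and 30.2%. Kcns3 had coefficients of 56.1% and 59.9% in wild-type and HSA-NRTN libraries beside medians of 55.5% and 48.8%, and Kcnv1 of 111% and 147% beside 64.6% and 57.0%.

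Other genes listed for fast motor neurons were set beside Kcng4, each against its own wild-type mean. Of these 5 genes, Chodl, Calca and Kcnq5 were lower than Kcng4 in each of the 5 HSA-NRTN libraries, while Kcnn2 and Mmp9 were higher than it in some. The HSA-NRTN libraries held 67.8% to 97.4% of the wild-type mean of Kcng4, against 22.5% to 55.7% for Chodl, a lectin-like membrane protein, and 16.8% to 56.8% for Calca, which encodes the neuropeptide CGRP. The potassium channel gene Kcnq5 was at 0% to 30.9%, the calcium-activated channel gene Kcnn2 at 50.4% to 91.0% and the metalloprotease gene Mmp9 at 19.0% to 130%. The CPM of Kcng4 was 0.323 to 0.696 times that of Chodl in HSA-NRTN and 0.176 to 0.228 times in wild-type libraries, ranges that did not overlap. Chodl alone did not overlap either, with wild-type libraries at 92.5% to 107% of its mean, so the ratio largely restates the lower level of Chodl. These genes were picked with their results known, so the ratio is a description and was not tested.

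**Figure D3:**
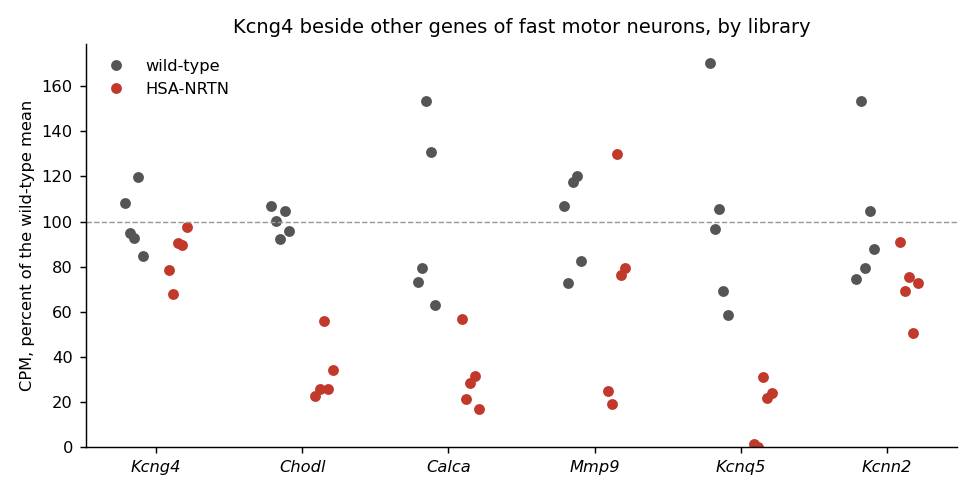
CPM of Kcng4 and of 5 other genes listed for fast motor neurons in each library, as a percentage of the wild-type mean of the same gene, on a linear axis from 0. The HSA-NRTN libraries (red) lie between 67.8% and 97.4% for Kcng4 and between 22.5% and 55.7% for Chodl, and wild-type libraries (grey) scatter about the dashed line at 100%.

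The remaining fitted subunits showed no genotype difference that exceeded the spread between libraries. Kcng1 (Kv6.1), on chromosome 2 from 168260117 to 168281736, was at 4.36, 32.6, 15.5, 25.5 and 17.1 CPM in wild-type replicates 1 to 5 and at 28.8, 11.3, 12.8, 17.7 and 24.2 CPM in HSA-NRTN replicates 1 to 5. The HSA-NRTN values all lay within the wild-type range, and the log2 fold change was 0.00087 (SE 0.50, 95% interval -1.06 to 1.06). Kcns3 (Kv9.3), on chromosome 12 from 11090202 to 11151056, was at 7.80, 31.4, 11.3, 19.3 and 13.1 CPM in wild-type and at 8.01, 27.0, 22.2, 12.0 and 6.41 CPM in HSA-NRTN replicates 1 to 5, with a log2 fold change of -0.14 (SE 0.53, 95% interval -1.27 to 0.99). The adjusted p was above 0.99 for both in edgeR, and these wide intervals leave the direction of either gene unresolved.

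Kcnv1 (Kv8.1), on chromosome 15 from 45106284 to 45114920, was carried by single libraries. It was at 0.230, 22.7, 7.74, 6.20 and 2.58 CPM in wild-type replicates 1 to 5 and at 43.6, 7.03, 3.30, 6.84 and 0 CPM in HSA-NRTN replicates 1 to 5. HSA-NRTN replicate 1 and wild-type replicate 2, both males, were the highest of their groups. The log2 fold change of 0.63 (SE 1.10, adjusted p = 0.999, edgeR) turned to -0.89 without HSA-NRTN replicate 1 and reached 1.52 without wild-type replicate 2, so its direction rested on these libraries.

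**Figure D4:**
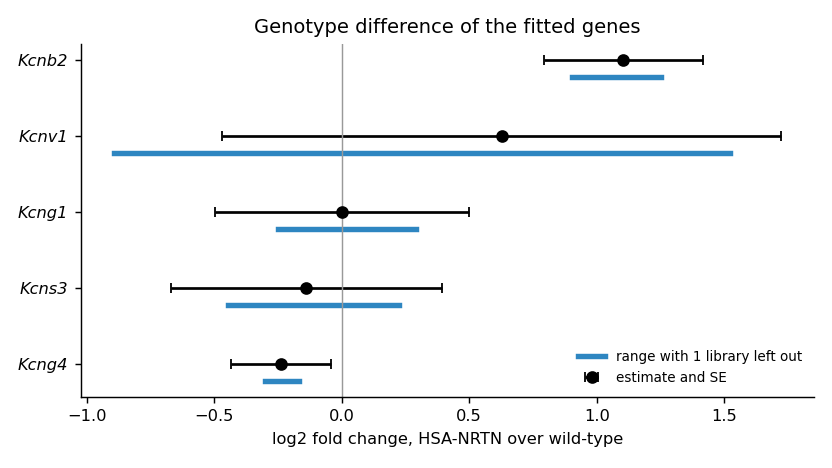
Log2 fold change of HSA-NRTN over wild-type for the 5 fitted members, with bars for the SE and blue lines for the range when each library is left out in turn. Kcnb2 stays between 0.90 and 1.25 and Kcng4 between -0.30 and -0.17, while the lines of Kcng1, Kcns3 and Kcnv1 cross 0.

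The other 4 genes were too low for the fit. Kcns2 (Kv9.2), on chromosome 15 from 34837355 to 34843407, had 55 counts in the HSA-NRTN group and none in the wild-type group. The counts lay in HSA-NRTN replicates 1, 4 and 5, at 31, 19 and 5, while replicates 2 and 3 had 0. Against a floor of 3 counts over the wild-type group, 0.130 CPM, the pooled level of 2.53 CPM was at least 19.4-fold higher, and at least 10.01-fold higher without HSA-NRTN replicate 1. These bounds allow for error in the wild-type zero only, not for the spread among HSA-NRTN libraries, where replicate 1 held 56.4% of the counts. How many other genes had counts in 1 group alone was not determined. An exact two-sided permutation test of the mean CPM gave p = 0.167, 1 of 3 such tests on the low genes. With counts in 3 libraries, all of 1 group, that test cannot give a smaller p, so it cannot decide. The adjusted p was 0.234 in DESeq2 and 0.215 in edgeR when every gene with a count was kept. In the authors' deposited table the moderated log2 fold change was 0.44, with an adjusted p of 0.322. The 3 libraries with counts had inhibitory interneuron marker sums of 101, 74.4 and 11.1 CPM, and excitatory ones of 148, 45.5 and 182 CPM. Among libraries without a Kcns2 count, the highest inhibitory sum was 172 CPM, in wild-type replicate 1. Their highest excitatory sum was 300 CPM, in wild-type replicate 5. The part of interneurons in the Kcns2 counts was not tested.

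Kcns1 (Kv9.1), on chromosome 2 from 164163619 to 164171113, had 29 counts in the HSA-NRTN group and 21 in the wild-type group. HSA-NRTN replicate 5 held 24 and wild-type replicate 5 held 14 of these, so each group rested on 1 library. The ratio of pooled levels, 1.46 with a 95% counting interval of 0.804 to 2.69, fell to 0.309 without HSA-NRTN replicate 5 and rose to 3.42 without wild-type replicate 5 (exact permutation p = 0.873 with all libraries). Kcng2 (Kv6.2), on chromosome 18 from 80294546 to 80364254, had 12 counts in all, 11 in HSA-NRTN replicate 5 and 1 in wild-type replicate 1, and shares exonic bases with a gene on the opposite strand, whose reads cannot be told from its own without strand information. Its ratio of 11.6 has a counting interval of 1.69 to 501, which covers counting error alone. The exact permutation p over libraries was 1, a value fixed by counts in 1 library of each group, so that test cannot decide.

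Kcng3 (Kv6.3), on chromosome 17 from 83585957 to 83631895, had 0 counts in all 10 libraries, which allows a level of up to 0.0670 CPM over the pooled libraries. At this depth it was not detectable in these motor neurons. Reads amplified by PCR without molecular identifiers are not independent molecules, so intervals and floors cover counting error only.

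The make-up of the silent subunits overlapped between the genotypes, and their ratio to Kcnb2 largely restates the higher level of Kcnb2 in HSA-NRTN pools. Per length, Kcng4 supplied 80.0% to 96.7% of the summed silent subunit level in wild-type and 78.8% to 89.7% in HSA-NRTN libraries. The sum itself was 107 ± 14.4 against 93.3 ± 9.74 CPM per kb (SD, n = 5 each), and these ranges overlapped. Kcng4 was 43.2, 16.6, 15.8, 31.3 and 28.9 times the level of Kcnb2 in wild-type replicates 1 to 5, and 8.01, 4.97, 12.2, 15.6 and 11.9 times in HSA-NRTN replicates 1 to 5. The ranges did not overlap but nearly met. This is a ratio within a library, so it does not depend on scaling between libraries. It was formed with its values known and carries no test.

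**Figure D5:**
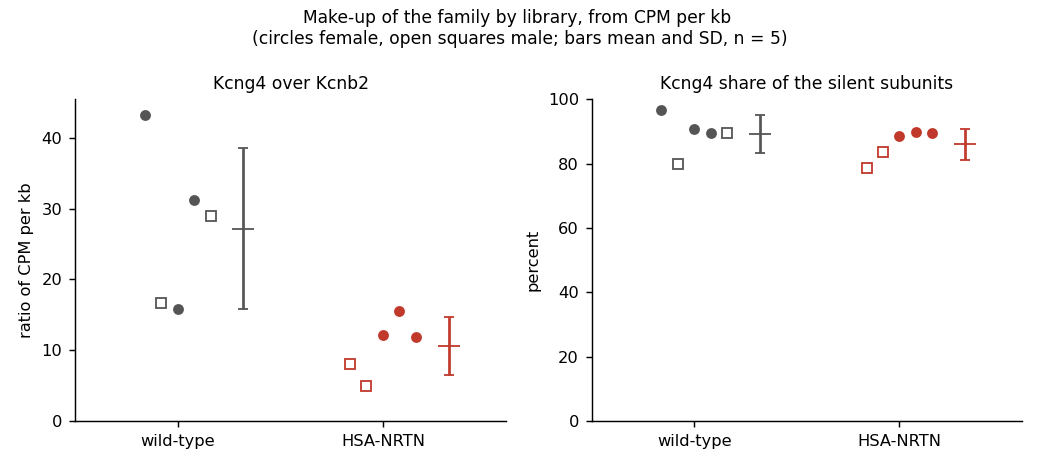
Per library, the ratio of Kcng4 to Kcnb2 and the share of Kcng4 in the summed silent subunits, both from CPM per kilobase of exon, with circles for females, open squares for males and bars for mean and SD (n = 5). The ratio is 15.8 to 43.2 in wild-type and 4.97 to 15.6 in HSA-NRTN libraries, while the shares overlap.

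Genes that work with Kv2 channels did not pass either. The remaining related silent subunits were scarce, Kcnf1 (Kv5.1) with 3 and Kcnv2 (Kv8.2) with 80 counts over all libraries. Of the genes of partner proteins, 5 of the 10 found were tested, with 1 positive and 4 negative log2 fold changes (median -0.16) and none with an unadjusted p under 0.05. They include Amigo1, an adhesion protein bound to Kv2 channels, at 59.7 ± 25.6 against 51.8 ± 19.6 CPM (SD, n = 5 each), and Vapa, an anchor in the endoplasmic reticulum for Kv2 clusters, at 415 ± 81.6 against 464 ± 75.6 CPM.

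A list of 14 genes of kinases, phosphatases and SUMO enzymes was drawn up for action on the related channel Kv2.1, not on Kv2.2. Of their log2 fold changes, 8 were positive and 6 negative (median 0.055). None passed over all genes, and 2 had an unadjusted p under 0.05, beside the 4.83% of all genes. Both were lower in HSA-NRTN pools, and both encode subunits of calcineurin, a calcium-dependent phosphatase that disperses clusters of Kv2.1. A link to Kcnb2 was not tested. Ppp3ca was at 698 ± 405 against 1353 ± 624 CPM (SD, n = 5 each; log2 fold change -0.96, SE 0.37, adjusted p = 0.913, edgeR). Ppp3r1 was at 482 ± 120 against 667 ± 116 CPM (log2 fold change -0.47, SE 0.22, adjusted p = 0.999, edgeR). The other calcineurin genes of the list did not pass at the unadjusted level, with log2 fold changes of -0.22 (SE 0.21) for Ppp3cb and 0.071 (SE 0.43) for Ppp3cc.

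Males and females were compared for the same genes. None of the 5 was called for sex, with 0.0086% of all genes called in edgeR, and 1 of the 5, Kcnv1, had an unadjusted p under 0.05, as did 11.2% of all genes. Kcnv1 was at 19.0 ± 18.5 CPM in the 4 male and 4.05 ± 3.39 CPM in the 6 female libraries (log2 fold change 2.18, SE 1.01, adjusted p = 0.443, edgeR). Kcnb2 was at 116 ± 67.7 CPM in males and 80.7 ± 30.9 CPM in females (log2 fold change 0.41, SE 0.30, adjusted p = 0.644, edgeR). For the genotype by sex interaction none of the 5 was called or had an unadjusted p under 0.05 in edgeR, and 5.14% of all genes had one.

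For each fitted member the genes with the nearest profile over the 10 libraries were sought among 10456 tested genes with a conventional symbol, by the root mean square difference of log2 CPM after each gene's mean was removed. Kcnb2 lay nearest to Prdm4, at 0.32 on the log2 scale, and to Erp29, at 0.34, where the median gene lay at 1.01. Kcng4 lay nearest to Prdx5, at 0.11, and to Vapa, at 0.13, with a median gene at 0.73, and since its own profile deviates by only 0.22 from its mean, near genes are those that also varied little. The nearest to Kcng1 were Vps52 (0.32) and Ncoa4 (0.34), to Kcns3 Dek (0.29) and Cers6 (0.36), and to Kcnv1 Rspo3 (0.93) and Amz1 (0.96). With 10 libraries and this many genes, near profiles arise without any relation between the genes, so these are descriptions only.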

How the data were processed

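Each library is 1 mouse, grouped by the genotype in the labels, and the replicates are numbered in record order. Reads were aligned with STAR 2.5.0a to GRCm38.p6 and counted with HTSeq, per the submitters' processing notes. Neither the gene annotation nor the HTSeq options are stated in the sources used here. The authors deposited raw counts of 51912 genes beside 92 spike-ins and 5 tally entries, and only genes entered library sizes. Of all entries, 13.5% to 42.3% per library were counted to genes. The authors' deposited expression table holds a signal, the counts divided by 1 DESeq2 size factor per library, and served as a source of symbols. The authors' comparison table gives moderated log2 fold changes, a Wald score and p-values, quoted only where named.

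Genes kept by filterByExpr (11630) were scaled by TMM and tested in R 4.3.3 with edgeR 4.0.16 (quasi-likelihood F test), with no covariate for genotype, with genotype in the model for sex, and with both for the interaction. P-values were adjusted over all tested genes and called under 0.05. DESeq2 1.42.0 and limma 3.58.1 (voom) were alternatives. CPM uses the TMM-scaled library sizes. Standard errors come from the F statistic, and 95% intervals from its degrees of freedom. Coordinates and union exon lengths come from GENCODE M21 (GRCm38). Genes too low for the fit were compared by exact permutation over libraries. The edgeR test was checked on simulated counts. Prior counts of 2 were used for log2 profiles.

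The members, gene lists and tests were chosen with earlier results of these data known. All 9 members were named whatever their values, with the 2 nearest profiles per fitted member, and list genes were named for an unadjusted p under 0.05. Amigo1 and Vapa were named after their values were seen. Some related genes are not reported here.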

Additional observations from a re-analysis of the deposited data

Results flagged for a closer look

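Within each genotype, a library that stood apart from the other 4 was sought for every gene with counts there, 15 groups of 5 libraries in all, and 4 were found. The nominal chance rate of about 1 in 20 groups was not tested on these values. It does not apply to groups made mostly of zeros, where any count stands apart. The measure is the gap from the extreme library to the nearest of the others as a share of the whole range of the group. For Kcnv1, HSA-NRTN replicate 1 was at 43.6 CPM and the next library at 7.03 CPM, a share of 0.839. For Kcns1, HSA-NRTN replicate 5 was at 5.92 CPM and the next at 0.733 CPM, a share of 0.876. For Kcng2, HSA-NRTN replicate 5 held 11 counts and wild-type replicate 1 held 1 count while the other libraries of each group held 0, a share of 1 in both.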

How the results depend on the processing

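No member was called for genotype under any of 22 alternatives, nor for sex or the interaction under any of 13 each. The log2 fold change of Kcnb2 kept its sign in all 22, between 0.77 and 1.43 with adjusted p from 0.0856 to 0.998, and that of Kcng4 between -0.30 and -0.14. That of Kcng1 turned to -0.010 with no filter, -0.30 in males alone and -0.12 with HSA-NRTN replicate 2 and wild-type replicate 1 both left out, rose to 0.53 with a covariate for the 2 runs of animal numbers, and ran from -0.25 to 0.29 with 1 library left out. That of Kcns3 turned to 0.10 in females alone, fell to -0.62 without those 2 libraries and ran from -0.44 to 0.22 with 1 library left out. That of Kcnv1 turned to -0.059 in limma voom, -0.15 with the runs and -0.45 in females alone, was 0.14 with sex as a covariate, and ran from -0.89 to 1.52. The cause was not tested. Neighbouring levels that differed numbered 2 to 3 under 13 alternatives. Leaving out 1 library at a time for Kcns1 and Kcns2 was chosen after seeing the data.

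Over all genes 1 was called with all libraries, 81 with no filter, 126 by DESeq2, 3 by limma voom, 9 with robust shrinkage, 5 with sex as a covariate, and 0 with that covariate for runs, in females or in males alone by edgeR, where 706, 566 and 653 genes had an unadjusted p under 0.05. It was 0 to 13 with 1 library left out. The runs are 2 blocks of close animal numbers, and no label calls them litters or batches. The first run holds 3 HSA-NRTN and 1 wild-type mice and the second 2 and 4, so they are unbalanced. No paired analysis was possible because the labels give no replicate number or litter that ties single mice across genotypes. With about 50 cells per pool, members under about 1 CPM rest on few counts, and 5 mice per group leave wide intervals for Kcng1, Kcns3 and Kcnv1.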
